A study of Homo sapiens with 15 samples.

Results

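Caco-2 cells exposed to polysorbate 20 (PS20) were compared with unexposed Caco-2 cells across all measured genes. The comparison takes 10 of the 15 libraries of the series: the 5 titled as PS20 and the 5 titled as unexposed control. Caco-2, an established human line from a colorectal adenocarcinoma, grows as a monolayer with enterocyte features and also makes liver-type plasma proteins. All groups shared this line, with no genetic change named in the labels. Per the series text, monolayers received PS20 at 0.05% for 24 h, and the remaining 5 libraries came from monolayers given polysorbate 80 (PS80) at the same dose and time. RNA was purified on columns, and polyadenylated RNA was sequenced. The labels do not say whether replicates came from separate cultures, so p-values measure the spread between these libraries, which may be technical.

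PS20 is a nonionic surfactant used as a food emulsifier, a laurate ester of polyethoxylated sorbitan. Surfactants of this kind insert into membranes and carry lipids in micelles. Epithelial cells answer changes in amino acid supply, sterol supply and membrane tension through separate programmes of transcription, which raise transporters and synthetic enzymes or rebuild the actin cortex. Host transcripts of small nucleolar RNAs are commonly removed by nonsense-mediated decay, which needs translation, and mRNAs of the translation machinery start with a pyrimidine tract that is read under control of the mTORC1 kinase complex.

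Total counts ranged from 4183096 to 13616301 in control and from 6749086 to 17251564 with PS20. Mitochondrially encoded RNA made up 1.497% to 1.91% of control counts and 2.03% to 2.58% of PS20 counts, with no overlap. The third principal component (10.6% of variance) separated replicates 1 and 2 from the other 3 in each group, and the labels give no reason. Levels are CPM, the usual unit of counts relative to library size, after scaling by trimmed mean of M-values. Of 13 epithelial markers 12 were tested. Their summed level was 12067 to 13528 CPM in control and 10120.3 to 10856 CPM with PS20, with 4 markers higher, CDX2 and FABP1 by the most, and KRT8, KRT18, KRT19 and VIL1 lower. Of 7 fibroblast markers 5 were tested, and 2 passed, PDGFRA and PDGFRB, both lower (sum 192 to 206 CPM in control and 155 to 170.3 CPM with PS20), and DCN was at 0 in all 10 libraries. The endothelial sum was 4.30 to 11.8 CPM in control and 10.08 to 13.8 CPM with PS20, and that of 7 blood cell markers 9.27 to 14.6 and 14.98 to 19.05 CPM, with CD14 as the 1 marker of the last list tested (higher). CDH5, KDR, TEK, HBA1 and HBB were at 0. The part of these markers in any result was not tested.

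Differences were widespread and mostly small. Of 12769 genes tested, 6150 passed edgeR's quasi-likelihood test at an adjusted p under 0.05 (48.2%), with 3099 higher (24.3%) and 3051 lower (23.9%) with PS20. Of those that passed, 4208 (68.4%) differed by less than 1.5-fold. A difference of more than 2-fold was seen in 674 genes (5.28%), of which 432 were higher and 242 lower, and 55 differed by more than 4-fold, 27 higher and 28 lower. In 4146 genes (32.5%) the 5 PS20 values did not overlap with the 5 control values. The median log2 fold change of all tested genes was 0.01. Counts of list members below stand against these shares of all tested genes, 24.3% higher and 23.9% lower. SESN2, DGAT1, SLC39A4, SULT2A1 and TFF2, named below, have a near-identical gene on an alternate scaffold of the annotation, so their counts are uncertain.

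**Figure D1:**
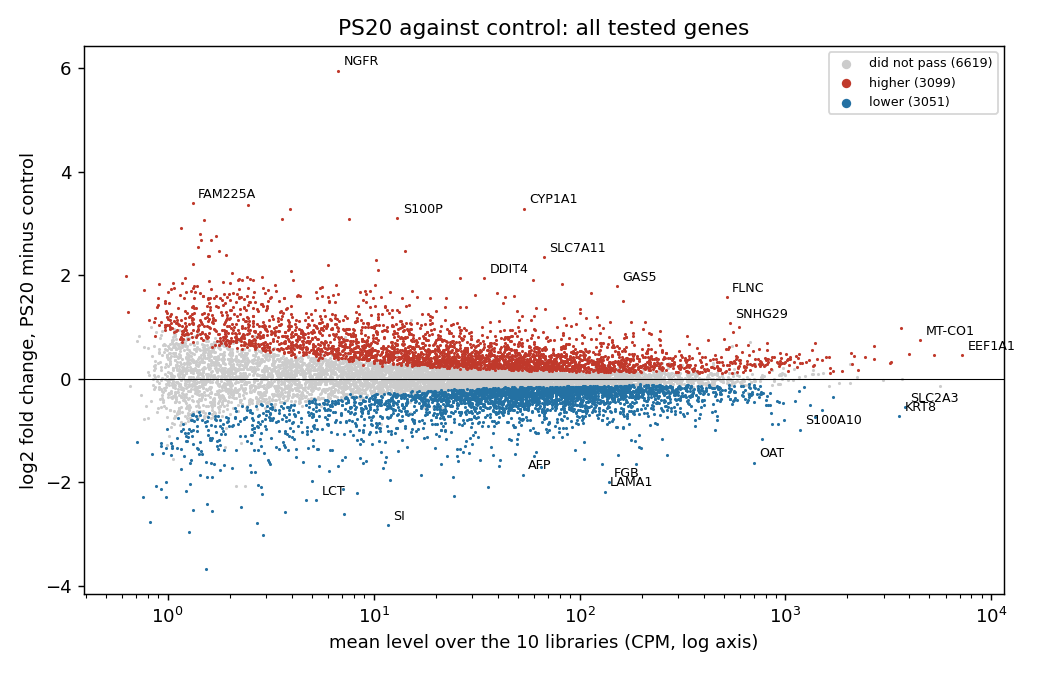
Each point is 1 of 12769 tested genes, with its mean CPM over the 10 libraries on a log axis and its log2 fold change, PS20 minus control. Red points (3099) were higher, blue points (3051) lower and grey points did not pass. NGFR lies highest at 5.95, and OAT, KRT8 and SLC2A3 are labelled among the abundant genes that were lower.

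The share of genes that passed differed with the kind and abundance of the transcript. The share that passed rose from 33.9% of 2346 genes with a mean of 1 to 5 CPM to 70.8% of 281 genes over 500 CPM. Among 807 long noncoding RNAs, 212 were higher and 90 lower (37.4% passed), against 2784 higher and 2918 lower among 11527 protein-coding genes (49.5% passed). Median log2 fold change fell with exonic length, from 0.06 in the 2555 shortest genes (up to 2843 bases) to -0.06 in the 2554 longest (from 8977 bases). Whether length or the share of mitochondrial RNA has a part in any gene's difference was not tested.

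Among genes that passed, whose groups did not overlap and whose mean was at least 5 CPM, the 4 largest rises were those of NGFR, CYP1A1, S100P and CEACAM5. NGFR, the low-affinity neurotrophin receptor, had 0, 0.526, 0.239, 0 and 0.273 CPM in the 5 control libraries and 6.51, 16.7, 13.9, 15.5 and 13.4 CPM in the 5 PS20 libraries. PS20 replicate 1 was the lowest of its group and still above every control library. The log2 fold change was 5.95 ± 0.44 (SE; adjusted p = 2.56e-09, Benjamini-Hochberg adjustment of edgeR's quasi-likelihood test, as for every adjusted p here), a value that depends on the prior count because 2 control libraries were at 0, and 27.2% of its exonic bases also lie in another gene. CYP1A1, a cytochrome P450 and classic target of the aryl hydrocarbon receptor, had 11.1, 9.58, 8.12, 10.8 and 9.15 CPM in the 5 control libraries and 115, 169, 73.4, 68.4 and 59.5 CPM in the 5 PS20 libraries. Replicates 1 and 2 were the highest with PS20, the groups did not overlap, and the log2 fold change was 3.28 ± 0.32 (adjusted p = 3.30e-06). S100P, a small calcium-binding protein of the S100 family on chromosome 4 from 6693878 to 6697170, had 2.36, 3.16, 4.06, 2.71 and 1.37 CPM in the 5 control libraries and 28.7, 33.6, 19.6, 21.2 and 13.4 CPM in the 5 PS20 libraries. Again PS20 replicates 1 and 2 were highest and no values overlapped (log2 fold change 3.10 ± 0.32, adjusted p = 2.09e-06).

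CEACAM5, CEACAM6 and CEACAM1, carcinoembryonic adhesion molecules of the apical surface, rose together and unevenly. CEACAM5 had 3.64, 2.001, 0.716, 0.587 and 1.503 CPM in the 5 control libraries and 15.7, 32.3, 7.08, 8.05 and 4.19 CPM in the 5 PS20 libraries, so its PS20 libraries differed among themselves by more than the gap between the groups. CEACAM6 had 11.4, 11.1, 10.5, 10.6 and 9.56 CPM in the 5 control libraries and 45.5, 92.5, 24.4, 29.8 and 17.1 CPM in the 5 PS20 libraries, with control values close together and PS20 replicate 2 highest. Log2 fold changes were 3.08 ± 0.71 for CEACAM5 (adjusted p = 0.00307), 1.95 ± 0.43 for CEACAM6 (0.00241) and 1.67 ± 0.28 for CEACAM1 (1.12e-04). Of the 13 tested mucins and carcinoembryonic adhesion molecules these 3 were the only ones higher by edgeR's test, and TFF2, a trefoil peptide of mucus, was the 1 lower (-1.81).

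Other genes of the 20 highest were varied. COL6A2, a chain of collagen VI, rose by 2.30, KIF21B, a kinesin, by 2.19 and SLC16A3, an exporter of lactate, by 2.09 on the log2 scale. SAT1, the acetyltransferase that sets the rate of polyamine breakdown, rose by 1.90 (from 24.9 ± 2.77 to 94.1 ± 16.6 CPM, mean ± SD, n = 5). SGK2, a kinase related to the serum- and glucocorticoid-induced kinase, rose by 1.76, RYR1, a calcium release channel, by 1.70, LRFN4, a neuronal adhesion molecule, by 1.69 and CYP2W1, a cytochrome P450, by 1.81. FAM225A, a long noncoding RNA, was the only gene of those that passed and carry a curated symbol to lie under 0.5 CPM in every control library and at 2 CPM or more in every PS20 library, and none showed the reverse. It had 0, 0.105, 0.478, 0.367 and 0.137 CPM in the 5 control libraries and 2.07, 2.30, 2.94, 2.57 and 2.28 CPM in the 5 PS20 libraries (log2 fold change 3.39 ± 0.39, adjusted p = 1.32e-07).

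**Figure D2:**
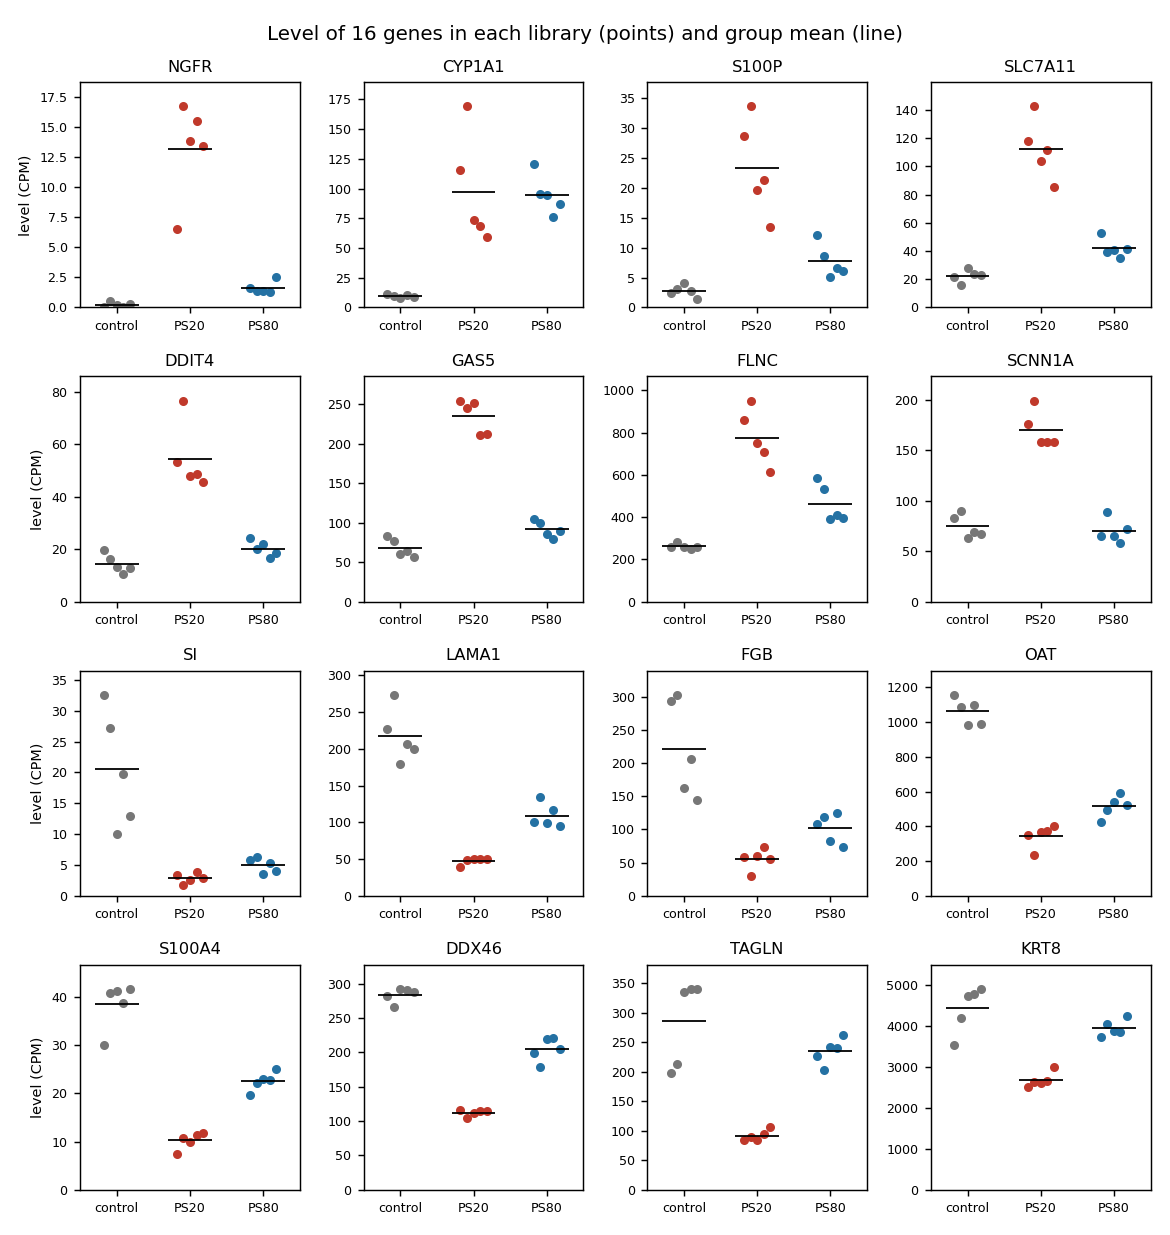
Each panel plots the level of 1 gene in CPM, with a point per library (5 control, 5 PS20 and 5 PS80) and a line at the group mean. The upper 8 genes were higher with PS20 and the lower 8 were lower. In each panel no PS20 point overlaps with a control point, as the choice of genes required.

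The largest falls took in digestive enzymes of the brush border, muscle-type proteins and liver-type secreted proteins. SI, the sucrase-isomaltase, had 32.6, 27.3, 10.03, 19.7 and 12.98 CPM in the 5 control libraries and 3.40, 1.76, 2.59, 3.91 and 2.88 CPM in the 5 PS20 libraries. LCT, the lactase, had 11.6, 8.84, 8.12, 8.95 and 6.15 CPM in the 5 control libraries and 1.92, 1.22, 0.979, 3.02 and 1.68 CPM in the 5 PS20 libraries. Control replicates 1 and 2 were highest for SI, and neither gene overlapped between groups. Log2 fold changes were -2.83 ± 0.31 for SI (adjusted p = 2.98e-06) and -2.35 ± 0.25 for LCT (6.61e-08). In bulk RNA, fewer cells of a type and less RNA per cell cannot be told apart, which holds for every marker of a cell state here. CYP4X1, an orphan cytochrome P450, was lower by 2.62 (from 12.5 ± 2.01 to 1.93 ± 0.476 CPM). NEB, the giant thin-filament protein nebulin, fell by 2.26 and MYBPH, a myosin-binding protein, fell by 2.09. ADGRG7, an adhesion-type G-protein-coupled receptor, fell by 1.98, and BTNL8, a butyrophilin-like protein of gut epithelium, fell by 1.73.

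Liver-type secreted proteins, which Caco-2 cells also make, shared this direction in part. FGB, the fibrinogen beta chain, had 294, 303, 162, 206 and 144 CPM in the 5 control libraries and 57.96, 29.2, 60.4, 73.5 and 55.3 CPM in the 5 PS20 libraries. AFP, alpha-fetoprotein, had 129, 117, 47.99, 74.3 and 45.9 CPM in the 5 control libraries and 26.2, 23.4, 16.9, 31.4 and 18.7 CPM in the 5 PS20 libraries. In both, control replicates 1 and 2 were highest and the groups did not overlap. Log2 fold changes were -1.997 ± 0.28 for FGB (adjusted p = 6.90e-05), -1.85 ± 0.37 for AFP (0.00121) and -1.16 ± 0.25 for FGG, the fibrinogen gamma chain (0.00182, from 1059.8 ± 388 to 474 ± 88.9 CPM). HPX, the haem-binding hemopexin, fell by 0.90, APOH by 0.92 and PROS1, the anticoagulant protein S, by 0.53, whereas SERPING1, the C1 inhibitor, rose by 0.95. Of 24 tested genes of this list 4 were higher and 8 lower (median -0.10, against 0.01 over all tested genes).

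Amino acid handling changed in both directions, among transporters as well as enzymes. SLC7A11, the cystine importer, had 21.9, 15.6, 27.7, 23.8 and 22.8 CPM in the 5 control libraries and 118, 142, 104, 112 and 85.2 CPM in the 5 PS20 libraries. ALDH1L2, a mitochondrial enzyme of folate metabolism, had 4.07, 3.05, 4.54, 5.50 and 4.24 CPM in the 5 control libraries and 27.5, 24.3, 27.9, 22.1 and 18.3 CPM in the 5 PS20 libraries. No values overlapped, and the log2 fold changes were 2.35 ± 0.16 (adjusted p = 1.27e-08) and 2.47 ± 0.15 (2.86e-12). The transporters SLC43A1 for large neutral, SLC7A1 for cationic and SLC1A5 for neutral amino acids rose by 1.14, 0.86 and 0.75. PSAT1 of serine synthesis rose by 1.04, SHMT2, which splits serine in mitochondria, by 0.82 and GOT1, the cytosolic aspartate aminotransferase, by 0.69.

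Other enzymes and carriers fell. OAT, ornithine aminotransferase, had 1157, 1084, 983, 1099 and 988 CPM in the 5 control libraries and 348, 235, 364, 373 and 399.6 CPM in the 5 PS20 libraries. PS20 replicate 2 was lowest and all PS20 values lay under all control values (log2 fold change -1.63 ± 0.12, adjusted p = 1.07e-07). GLUD1, glutamate dehydrogenase, fell by 0.80 (from 1253 ± 153 to 718 ± 44.9 CPM), GPT2, a mitochondrial alanine aminotransferase, by 0.73, ALDH18A1 of proline synthesis by 0.56 and GLDC of glycine cleavage by 0.86. SLC1A3, a glutamate and aspartate importer, fell by 1.47 and SLC16A10, an aromatic amino acid transporter, by 0.83. PEPD, a peptidase that frees proline from dipeptides, fell by 1.32 (from 279 ± 12.8 to 112 ± 12.01 CPM). Of 26 amino acid transporters 9 were higher and 9 lower, of 20 serine, glycine and one-carbon enzymes 8 were higher and 6 lower, and of 19 enzymes of asparagine, proline, glutamine and branched-chain amino acids 7 were higher and 8 lower. Medians were 0.05, 0.17 and -0.08.

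Cytosolic aminoacyl-tRNA synthetases, which charge tRNAs for protein synthesis, moved in 1 direction. Of 20 tested, 13 were higher and 0 lower by edgeR's quasi-likelihood test (0 lower also at an unadjusted p under 0.05 and by DESeq2), with a median of 0.21. SARS1 had 90.04, 88.97, 85.5, 83.1 and 89.5 CPM in the 5 control libraries and 169.9, 201, 167, 170.0 and 154 CPM in the 5 PS20 libraries. AARS1 had 359.7, 398, 425, 389 and 368 CPM in the 5 control libraries and 697, 826, 755, 699 and 662 CPM in the 5 PS20 libraries. PS20 replicate 2 was highest in both, with no overlap (log2 fold changes 0.98 ± 0.07, adjusted p = 2.89e-11, and 0.91 ± 0.07, 2.05e-10). WARS1, YARS1 and IARS1 rose by 0.77, 0.66 and 0.58. Their mitochondrial counterparts were divided: of 16 tested 5 were higher, among them RARS2 (0.43) and NARS2 (0.42), and 4 lower, among them LARS2 (-0.47) and IARS2 (-0.20).

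Some of these genes carry, in the 250 bases before their transcription start, the letters TGATGNAA (N is any base, read on both strands), a form of the C/EBP-ATF response element that ATF4 is known to bind. The stretches of 7 genes are shown because these genes rose with PS20 by more than 0.3 on the log2 scale and hold a match. They were found among the members of the 4 lists of amino acid enzymes, transporters and cytosolic synthetases and the genes named for their fold change. The sequences are RefSeq promoters on GRCh38.p14, read 5′ to 3′ along the gene, with the match in capitals. The stretch of AARS1 lies at chr16:70289646-70289733 on the minus strand, that of IARS1 at chr9:92293698-92293750 on the minus strand, that of GARS1 at chr7:30594805-30594877 on the plus strand and that of GOT1 at chr10:99430775-99430862 on the minus strand. MTHFD1L, a mitochondrial formyltetrahydrofolate synthetase (log2 fold change 0.60), has it at chr6:150866317-150866404 on the plus strand, SLC1A5 at chr19:46784864-46784951 on the minus strand and S100P at chr4:6693715-6693802 on the plus strand. MTHFD1L and GARS1 (0.39) were chosen after their values were seen.
AARS1: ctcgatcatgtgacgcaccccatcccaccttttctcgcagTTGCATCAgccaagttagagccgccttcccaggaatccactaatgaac
IARS1: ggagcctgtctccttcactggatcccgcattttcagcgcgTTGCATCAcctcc
GARS1: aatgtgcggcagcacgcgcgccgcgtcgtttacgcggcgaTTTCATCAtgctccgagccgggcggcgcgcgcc
GOT1: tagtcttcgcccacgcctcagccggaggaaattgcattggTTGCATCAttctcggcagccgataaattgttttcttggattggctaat
MTHFD1L: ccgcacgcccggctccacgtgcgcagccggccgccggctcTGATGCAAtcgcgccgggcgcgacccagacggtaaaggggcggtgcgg
SLC1A5: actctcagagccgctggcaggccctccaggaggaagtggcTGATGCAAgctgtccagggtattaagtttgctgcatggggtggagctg
S100P: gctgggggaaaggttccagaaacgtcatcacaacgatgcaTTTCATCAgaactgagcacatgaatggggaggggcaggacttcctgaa
The match lies on the gene's strand in MTHFD1L and SLC1A5 and on the other strand in the remaining genes. A match is a description of letters and not a site. The letters were present in 2.46% of 2238 protein-coding genes that were higher, 2.58% of 2446 that were lower, 2.06% of 4755 that did not pass and 3.14% of all 35116 promoters of the table.

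Single genes of stress signalling were among those that rose. DDIT4, an inhibitor of the mTORC1 kinase complex, had 19.5, 16.1, 13.4, 10.6 and 12.7 CPM in the 5 control libraries and 53.2, 76.7, 47.9, 48.5 and 45.5 CPM in the 5 PS20 libraries. TRIB3, a pseudokinase target of the stress factor CHOP, had 89.8, 89.2, 90.01, 81.2 and 76.6 CPM in the 5 control libraries and 259, 323, 214, 221 and 184 CPM in the 5 PS20 libraries. PS20 replicate 2 was again highest in both and no values overlapped (log2 fold changes 1.94 ± 0.17, adjusted p = 1.61e-07, and 1.49 ± 0.16, 3.83e-06). DDIT3, which encodes CHOP, rose by 1.69, with 39.6% of its exonic bases in another gene. SESN2, a leucine-sensing inhibitor of mTORC1 among the p53 targets, rose by 0.99, STC2, a secreted stanniocalcin, by 1.10 (from 114 ± 8.98 to 243 ± 17.8 CPM) and CEBPB, a stress-responsive C/EBP factor, by 1.35 (from 38.6 ± 6.41 to 97.2 ± 15.1 CPM). Of 22 tested p53 targets 8 were higher and 5 lower. GDF15, a stress cytokine, and TNFRSF10B, a death receptor, rose by 0.77 and 0.63, and TP53I3, an oxidoreductase, and BTG2, an antiproliferative factor, fell by 0.62 and 0.47.

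Host transcripts of small nucleolar RNAs, whose introns hold guides for ribosomal RNA modification, had the highest median of the 46 gene lists. Of 22 tested 14 were higher and 2 lower, with a median log2 fold change of 0.59. GAS5, on chromosome 1 from 173858559 to 173868882 (GRCh38), had 82.8, 76.8, 60.4, 63.95 and 56.2 CPM in the 5 control libraries and 255, 246, 251, 211 and 212 CPM in the 5 PS20 libraries. ZFAS1 had 58.3, 62.96, 50.1, 46.4 and 55.6 CPM in the 5 control libraries and 164, 185, 183, 171 and 161 CPM in the 5 PS20 libraries, with 43.1% of its exonic bases in another gene. SNHG29 had 333, 381, 319.9, 354 and 343 CPM in the 5 control libraries and 729.6, 806, 735, 689.7 and 678 CPM in the 5 PS20 libraries. In all 3 the lowest PS20 library lay far above the highest control library, and PS20 libraries varied little. Log2 fold changes were 1.79 ± 0.10 for GAS5 (adjusted p = 9.13e-11), 1.66 ± 0.08 for ZFAS1 (2.34e-14) and 1.07 ± 0.06 for SNHG29 (8.97e-13). SNHG15 and SNHG12 rose by 1.05 and 1.505, and TAF1D, whose mRNA hosts small nucleolar RNAs, by 0.80. The 2 that were lower were SNHG3 (-0.58) and DANCR (-0.41), named here after their values were seen.

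**Figure D3:**
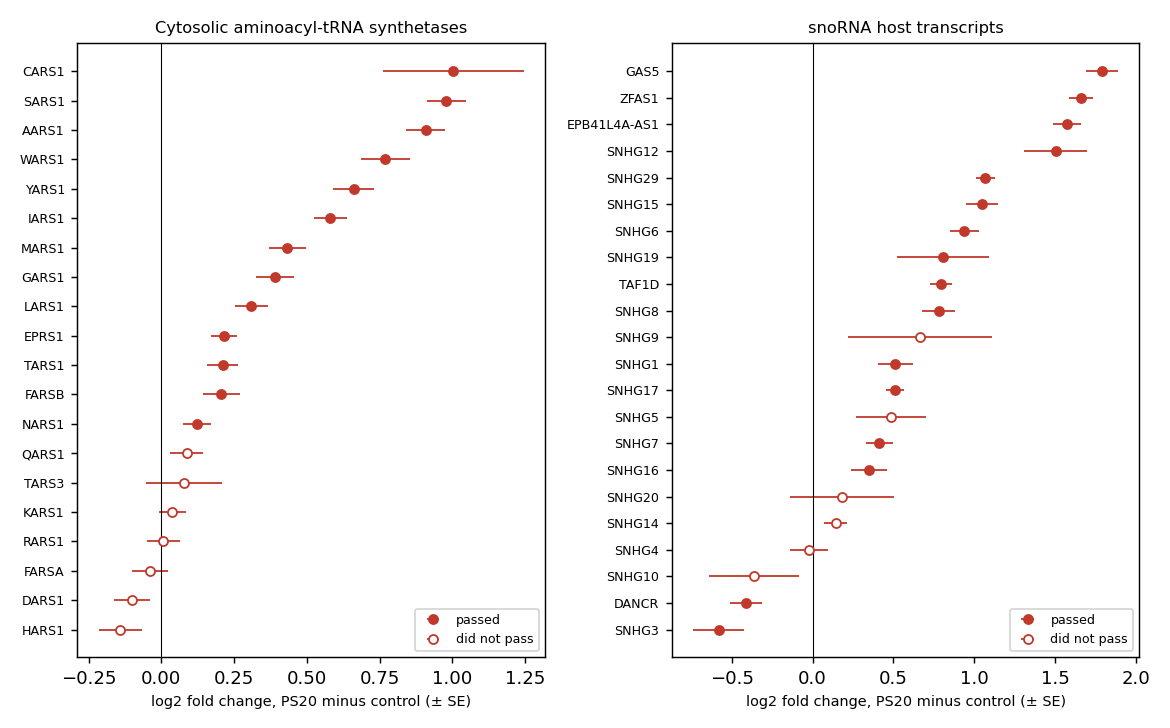
Points give the log2 fold change, PS20 minus control, of each tested member of 2 lists, with SE bars, filled where the gene passed and open where it did not. All 13 filled synthetases lie above 0, and 14 of the 16 filled host transcripts do. CARS1, the highest synthetase, has a near-identical gene on an alternate scaffold, so its count is uncertain.

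Abundant mRNAs of the translation machinery rose by small amounts. EEF1A1, the factor that delivers charged tRNA to the ribosome, had 6412, 6838, 5596, 6093 and 5509 CPM in the 5 control libraries and 8694, 9238, 7951, 7672 and 8054 CPM in the 5 PS20 libraries. The groups did not overlap (log2 fold change 0.45 ± 0.07, adjusted p = 2.31e-05). EEF2, the translocation factor, rose by 0.32, and RPLP0 and RPL12, proteins of the ribosomal stalk, by 0.50 and 0.70. Of 78 tested genes with a ribosomal protein symbol, 65 were higher and 0 lower by edgeR's quasi-likelihood test (1 lower at an unadjusted p under 0.05 and 0 by DESeq2), with a median of 0.35. They have near-identical copies in the genome, so single counts are uncertain. A C followed by 4 pyrimidines at the annotated start, the form of the tract named above, was present in 9.56% of the protein-coding genes that were higher, 6.01% of those that were lower and 6.90% of those that did not pass. The ribosomal protein genes were not taken out of these shares, and their part in the first share was not tested. Shares of other promoter letters that were counted are given below, beside SREBF2. Of 45 translation factors 17 were higher and 8 lower, with EIF1, EIF5, EIF3E and EIF3H higher by 0.50, 0.41, 0.36 and 0.41, and EIF4EBP1, a repressor of cap-dependent initiation, by 0.73.

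Factors that build ribosomes were mixed. Of 41 tested 11 were higher and 6 lower (median 0.06). RRS1, MYBBP1A, NOP56 and POLR1B, factors of nucleolar assembly and transcription, rose by 0.60, 0.49, 0.48 and 0.37, and UBTF, an activator of ribosomal RNA genes, fell by 0.48. Of 34 proteasome genes 3 were higher and 10 lower, with PSMD2 lower by 0.43 and PSMA1 higher by 0.43. Other long noncoding RNAs that rose included INSIG1-DT (1.60), KDM7A-DT (1.53), MARCHF6-DT (1.15), ODC1-DT (1.14) and MAN1B1-DT (1.14), all read divergently from the start of a coding gene. Those that fell included LINC00668 (-1.87), UCA1 (-1.78), LINC01134 (-1.72), LINC01963 (-1.65) and LINC02754 (-1.62).

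Mitochondrial transcripts and enzymes did not share 1 direction. MT-CO1, the mitochondrially encoded catalytic subunit of cytochrome oxidase, had 3563, 3593, 3001, 3469 and 3187 CPM in the 5 control libraries and 5628, 5598, 6064, 4687 and 6172 CPM in the 5 PS20 libraries. The lowest PS20 library lay above the highest control library (log2 fold change 0.74 ± 0.10, adjusted p = 1.42e-05). Of 17 tested mitochondrially encoded genes 5 were higher and 0 lower by edgeR's test (0 lower at an unadjusted p under 0.05 and by DESeq2). The share that passed, 29.4%, was under the 48.2% of all tested genes. The 5 were MT-CO1, MT-CO3 (0.37) and, named after their values were seen, MT-ND1 (0.28), MT-RNR2 (0.98) and MT-TP (0.53). The call of MT-RNR2 was lost without PS20 replicate 1, 2, 3 or 5 or control replicate 3, 4 or 5 (adjusted p 0.0521 to 0.0816 by edgeR), and that of MT-TP without PS20 replicate 2 or 5 or control replicate 1 or 4 (0.0514 to 0.063). Among nuclear genes, 8 of 24 citrate cycle enzymes were lower, including SUCLG1 (-0.57), IDH3G (-0.52), IDH3B (-0.41) and SDHD (-0.35), and 5 were higher, including IDH1 (0.41), the cytosolic isocitrate dehydrogenase. UCP2, a carrier of the inner mitochondrial membrane, rose by 1.10 (from 132 ± 12.1 to 286 ± 27.9 CPM).

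Lipid genes moved in both directions, and CPT1A and NPC1L1 rose. CPT1A, which gates fatty acid entry into mitochondria, had 40.5, 37.5, 31.8, 30.95 and 31.7 CPM in the 5 control libraries and 104, 80.3, 87.1, 90.2 and 83.4 CPM in the 5 PS20 libraries. NPC1L1, the intestinal cholesterol importer, had 25.9, 34.1, 28.7, 28.02 and 25.3 CPM in the 5 control libraries and 85.3, 85.6, 59.5, 63.6 and 61.2 CPM in the 5 PS20 libraries. Replicates 1 and 2 were highest for NPC1L1 with PS20, and neither gene overlapped between groups (log2 fold changes 1.37 ± 0.08, adjusted p = 2.39e-12, and 1.30 ± 0.15, 1.94e-06). ACADVL, which starts the oxidation of long acyl chains, rose by 1.01, while EHHADH and ACAA2, later enzymes of the pathway, fell by 0.77 and 0.57. Over 27 oxidation genes 6 were higher and 9 lower. TM7SF2, a sterol reductase, rose by 1.10 (from 89.3 ± 17.9 to 193 ± 9.21 CPM), and SCD, the stearoyl-CoA desaturase, by 0.47 (from 3325 ± 448 to 4599 ± 449 CPM).

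Sterol regulators divided. SREBF2, the master factor of sterol synthesis, and SCARB1, a lipoprotein receptor, rose by 0.36 and 0.28. SREBF1, its partner for fatty acid synthesis, and MYLIP, a ligase that degrades the LDL receptor, fell by 0.53 and 0.61. Of 19 genes of sterol uptake and efflux 8 were higher and 3 lower (median 0.19). INSIG1-DT, divergent from the gene of the sterol sensor INSIG1, had 2.79, 2.84, 2.63, 3.08 and 2.46 CPM in the 5 control libraries and 8.87, 8.51, 8.52, 8.72 and 8.03 CPM in the 5 PS20 libraries, with 2 tight groups (log2 fold change 1.60 ± 0.18, adjusted p = 9.62e-08). SREBF2 carries the letters TCACNCCAC of a sterol response element before its start at chr22:41832932-41833020 on the plus strand (GRCh38.p14), shown with the match in capitals.
SREBF2: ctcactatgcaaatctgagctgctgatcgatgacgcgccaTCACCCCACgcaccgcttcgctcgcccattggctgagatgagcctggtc
These letters occurred on either strand in 1.74% of the protein-coding genes that were higher, 0.859% of those that were lower and 1.24% of those that did not pass. Other letters were counted in the same way, with shares given for higher and then lower genes. TGACNNNGC stood at 16.5% and 15.9%, TNGCGTG at 7.82% and 8.14% and CACGTG at 11.6% and 11.8%. TTTCCCGC stood at 2.86% and 3.35%, TTTGAA at 10.9% and 13.6% and CCAAT at 40.8% and 43.0%.

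Genes of lipid droplets and lipoprotein assembly moved in both directions, with more of them higher than lower. MGLL, monoacylglycerol lipase, rose by 1.27, PLIN2, a droplet coat protein, by 0.80 and LIPA, the lysosomal acid lipase, by 0.46, and PLIN3, a second coat protein, fell by 0.36. Of 13 droplet genes 5 were higher and 1 lower, and of 17 apolipoprotein and assembly genes 8 were higher and 3 lower. The shares that passed were 46.2% and 64.7%, against 48.2% of all tested genes. FABP1, the liver-type fatty acid carrier, MOGAT3 and DGAT1, acyltransferases of triglyceride synthesis, rose by 0.55, 0.59 and 0.36, and LCAT, which esterifies cholesterol in plasma, fell by 1.02. CHKA, choline kinase, which starts phosphatidylcholine synthesis, had 159.5, 151, 160.2, 156 and 159.7 CPM in the 5 control libraries and 56.2, 44.96, 53.3, 55.5 and 57.98 CPM in the 5 PS20 libraries. Its groups were tight and far apart (log2 fold change -1.55 ± 0.09, adjusted p = 5.10e-11).

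Sugar genes changed by transporter. ARRDC3, an arrestin that promotes the internalization of membrane proteins, had 30.2, 32.2, 35.8, 41.00 and 40.3 CPM in the 5 control libraries and 126, 144, 125, 126 and 122 CPM in the 5 PS20 libraries. SLC2A3, a high-affinity glucose transporter, had 4152, 4455, 4807, 4623 and 4530.3 CPM in the 5 control libraries and 2586, 3169, 3189.5, 3019.6 and 3489 CPM in the 5 PS20 libraries. Both separated the groups completely, in opposite directions (log2 fold changes 1.83 ± 0.08, adjusted p = 2.49e-14, and -0.55 ± 0.06, 2.10e-07). SLC2A1, the basal glucose transporter, rose by 0.76, SLC2A2, the low-affinity transporter, fell by 1.58, and TBC1D4, which holds glucose transporter vesicles inside cells, fell by 1.48. PKM, pyruvate kinase, fell by 0.87 (from 1193 ± 49.4 to 653 ± 35.4 CPM). TKFC, a kinase of fructose breakdown, rose by 0.62. Of 18 sugar genes 7 were higher and 7 lower.

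Nucleotide synthesis was balanced, with 7 of 24 genes higher and 7 lower. DHODH of pyrimidine synthesis rose by 0.50, and RRM2 and RRM1, subunits of ribonucleotide reductase, fell by 0.63 and 0.28. IMPDH2, which makes guanine nucleotides, fell by 2.22 (from 4.71 ± 0.668 to 1.03 ± 0.34 CPM), but another gene covers 32.8% of its exons.

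Detoxification and metal handling shifted by gene. ABCB1, the multidrug efflux pump P-glycoprotein, had 242, 239, 263, 252 and 246 CPM in the 5 control libraries and 111, 73.2, 118, 114 and 124 CPM in the 5 PS20 libraries. The 2 ranges were far apart, with PS20 replicate 2 lowest (log2 fold change -1.20 ± 0.16, adjusted p = 3.79e-05). ABCG2 and ABCC3, other efflux pumps, rose by 0.81 and 0.59, SLC29A2, a nucleoside transporter, by 0.60 and SLCO2A1, a prostaglandin carrier, by 2.46 (from 0.532 ± 0.185 to 3.03 ± 1.54 CPM). Of 20 drug transporters 10 were higher and 4 lower. SULT1C2 and SULT2A1, both sulfotransferases, moved apart, at 1.74 and -1.31.

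Metal genes mostly rose where zinc was concerned. MT2A and MT1F, zinc-binding metallothioneins, rose by 2.68 and 1.24, both from low counts (from 0.432 ± 0.291 to 2.80 ± 1.25 CPM for MT2A). The zinc transporters SLC39A4, SLC30A2 and SLC30A1 rose by 1.41, 1.15 and 0.40, and of 9 tested genes of the list 5 were higher and 1 lower. FTL, the ferritin light chain, rose by 0.64 (from 2111 ± 90.5 to 3288 ± 92.7 CPM) and CYBRD1, a ferric reductase, by 0.95. SLC11A2, the iron importer of enterocytes, and NCOA4, which delivers ferritin to lysosomes, fell by 0.46 and 0.41, so that of 15 iron genes 6 were higher and 5 lower. Among 38 lysosome and autophagy genes 14 were higher and 10 lower, with WIPI1, CTSL and GABARAPL1 higher by 0.88, 0.79 and 0.70 and CTSA lower by 0.39.

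Ion and water transport showed large single-gene differences. SCNN1A, the alpha subunit of the epithelial sodium channel, had 82.8, 90.1, 63.5, 69.2 and 66.7 CPM in the 5 control libraries and 176, 199, 158, 159 and 158 CPM in the 5 PS20 libraries. SLC4A8, a sodium-driven chloride-bicarbonate exchanger, had 184, 209, 215, 196 and 169 CPM in the 5 control libraries and 51.5, 56.98, 66.8, 61.9 and 70.9 CPM in the 5 PS20 libraries. Neither overlapped between groups (log2 fold changes 1.19 ± 0.12, adjusted p = 5.13e-07, and -1.65 ± 0.08, 1.38e-12). AQP3, a water and glycerol channel, fell by 1.23, CA2, a carbonic anhydrase, by 1.20 and SLC12A2, a sodium-potassium-chloride cotransporter, by 0.67, whereas TRPM4, a calcium-activated cation channel, rose by 0.99. Of 29 genes of the list 12 were higher and 10 lower. LRP2, the endocytic receptor megalin, fell by 1.20 (from 258 ± 45.2 to 112 ± 6.78 CPM).

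The actin cortex, keratins and S100 proteins were mostly lower where they changed, but FLNC and S100P were much higher. Of 37 actin, myosin and linker genes 6 were higher and 19 lower (median -0.17), of 12 intermediate filament genes 2 were higher and 8 lower (median -0.36), and of 18 S100 and annexin genes 4 were higher and 11 lower (median -0.32). TAGLN, the actin-binding transgelin, had 199, 213, 336, 340.2 and 340.3 CPM in the 5 control libraries and 84.1, 89.1, 84.99, 94.02 and 106 CPM in the 5 PS20 libraries. Control replicates 1 and 2 were the lowest of their group and still above every PS20 library (log2 fold change -1.64 ± 0.16, adjusted p = 2.46e-06), and 47.8% of its exonic bases lie in another gene. LIMA1, MYL9, TLN1 and TPM4, which bundle, contract or anchor actin, fell by 0.77, 0.75, 0.69 and 0.55. FLNC, an actin crosslinker of muscle on chromosome 7 from 128830406 to 128859274, had 259, 280.1, 258, 250.4 and 259 CPM in the 5 control libraries and 858, 951, 750.4, 706 and 615 CPM in the 5 PS20 libraries (log2 fold change 1.57 ± 0.14, adjusted p = 5.76e-07). No FLNC values overlapped, and PS20 replicates 1 and 2 were highest.

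KRT8, the main keratin of simple epithelium, had 3551, 4196, 4729, 4793 and 4914 CPM in the 5 control libraries and 2508, 2637, 2606, 2661 and 3007 CPM in the 5 PS20 libraries. Its control values ranged more widely than the PS20 values and stayed above them (log2 fold change -0.73 ± 0.07, adjusted p = 2.98e-08). KRT18, its partner, fell by 0.61, and both are among the epithelial markers above. The lamins LMNB2 and LMNA fell by 0.42 and 0.36, and NES, the intermediate filament nestin, rose by 0.70. S100A4, on chromosome 1 from 153543613 to 153550136, had 30.01, 40.9, 41.3, 38.8 and 41.7 CPM in the 5 control libraries and 7.39, 10.8, 10.02, 11.4 and 11.7 CPM in the 5 PS20 libraries, and S100A10, the partner of annexin A2, had 1431, 1612, 1519, 1558 and 1666 CPM in the 5 control libraries and 715, 714, 797, 808 and 884 CPM in the 5 PS20 libraries. Neither overlapped between groups (log2 fold changes -1.91 ± 0.11, adjusted p = 1.20e-12, and -0.99 ± 0.06, 2.28e-12). S100A16, S100A14 and ANXA2 fell by 0.89, 0.49 and 0.46, in contrast to S100P above.

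Basement membrane and matrix genes moved in different directions. LAMA1, a laminin alpha chain of early basement membrane on chromosome 18 from 6941742 to 7117797, had 227, 274, 179, 206 and 199.8 CPM in the 5 control libraries and 39.6, 48.2, 50.3, 49.9 and 49.8 CPM in the 5 PS20 libraries. The PS20 libraries lay close together, far under the control libraries (log2 fold change -2.19 ± 0.12, adjusted p = 8.13e-10). LAMA3 and LAMA5 fell by 0.82 and 0.41, and of 18 basement membrane genes 4 were higher and 7 lower. Of 19 other collagen and matrix genes 8 were higher and 2 lower, with THBS1, SPARC and P4HA2, a collagen hydroxylase, higher by 0.64, 0.51 and 0.63 and COL12A1 lower by 0.94. FN1, fibronectin, rose by 0.46 (from 4419 ± 259 to 6069 ± 766 CPM). Among 14 integrins 5 were higher and 5 lower: ITGA6, ITGA5 and ITGAV rose by 0.58, 0.57 and 0.41, and ITGA7 and ITGA1 fell by 1.19 and 1.02. Of 26 proteases and inhibitors 10 were higher and 2 lower, with MMP15 and ADAM8, membrane-bound metalloproteases, higher by 0.99 and 0.996 and ST14, the epithelial protease matriptase, lower by 0.40.

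**Figure D4:**
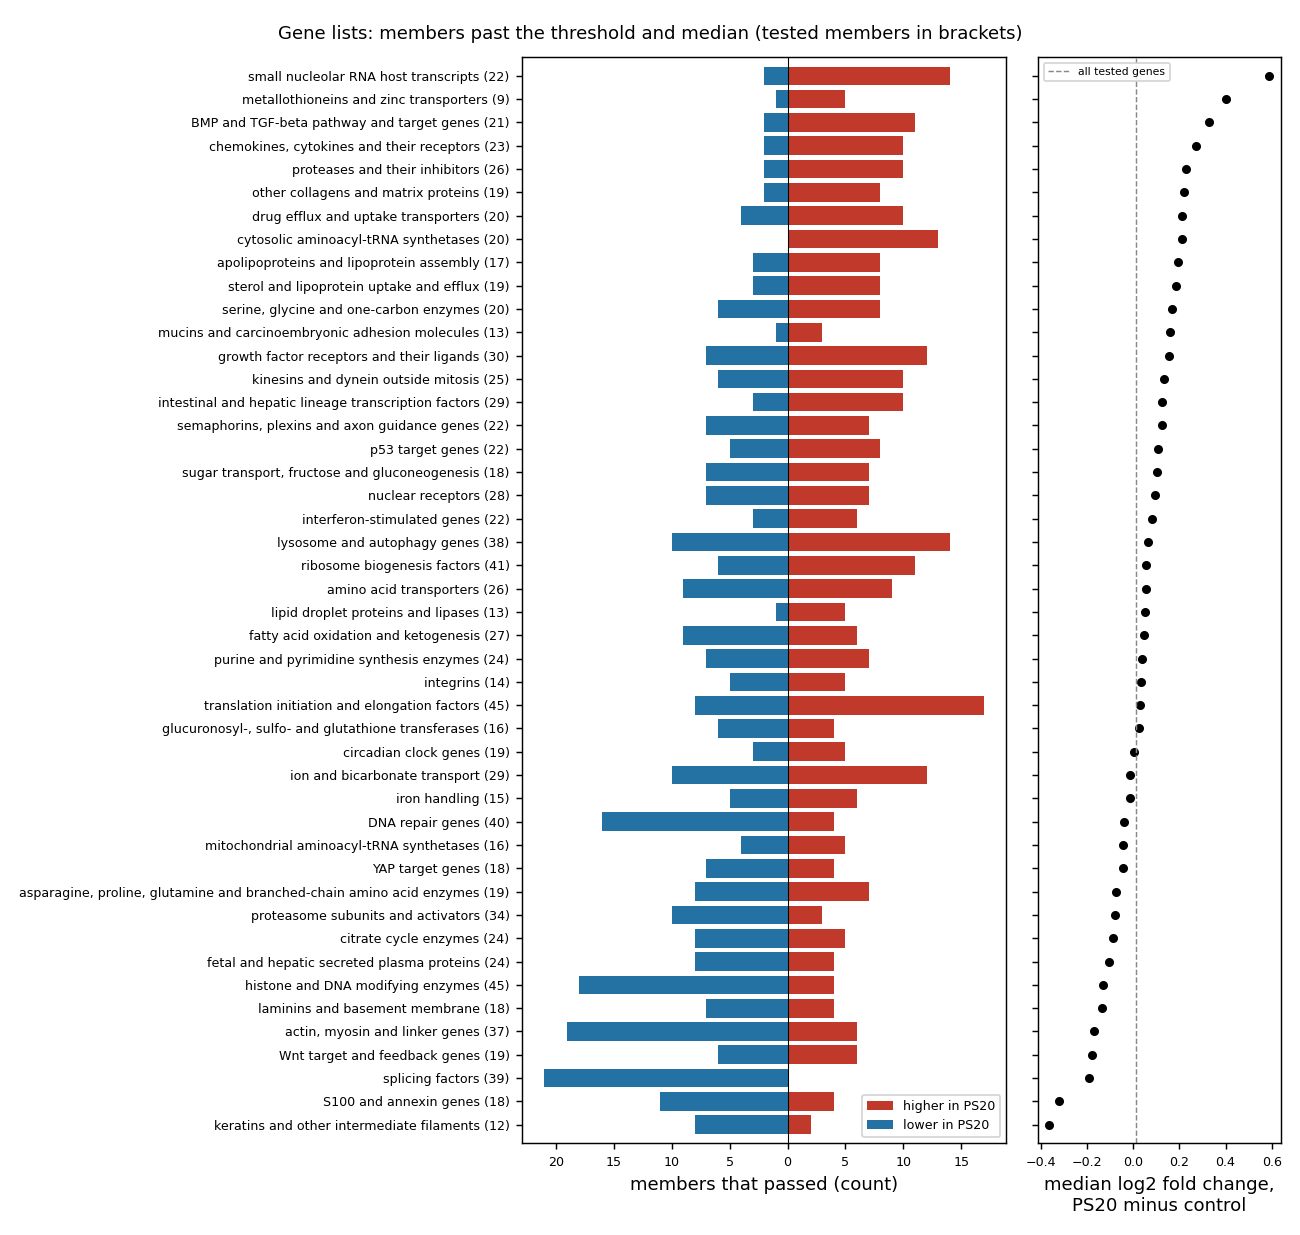
Left bars count the members of each of 46 gene lists that were higher (red) or lower (blue) with PS20, with tested members in brackets, and right points give the list's median log2 fold change. Host transcripts of small nucleolar RNAs lie highest at 0.59, keratins and other filaments lowest at -0.36, and the dashed line marks 0.01, the median of all tested genes. Medians of 6 lists near 0 changed sign with another scaling, and those of 13 lists did in at least 1 of all alternatives run.

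Signalling genes differed by pathway. LGR5, the intestinal stem cell receptor of Wnt signalling, had 17.2, 15.9, 22.4, 20.5 and 19.9 CPM in the 5 control libraries and 5.17, 5.67, 8.75, 6.37 and 9.22 CPM in the 5 PS20 libraries. MYC, a transcription factor of growth and a Wnt target, had 69.03, 56.2, 41.8, 45.9 and 44.8 CPM in the 5 control libraries and 136, 109.6, 104, 118 and 113 CPM in the 5 PS20 libraries. Both separated the groups (log2 fold changes -1.41 ± 0.20, adjusted p = 1.01e-05, and 1.18 ± 0.14, 5.54e-06). NKD1, a Wnt feedback inhibitor, and TNFRSF19 fell by 0.96 and 0.62, SOX4 rose by 0.63, and of 19 Wnt targets 6 were higher and 6 lower. In the BMP and TGF-beta list 11 of 21 were higher and 2 lower (median 0.33). INHBE, an activin subunit, rose by 3.09 from a low level (from 0.717 ± 0.37 to 6.46 ± 2.33 CPM), BMP2 by 0.78, ID1, a BMP target, by 0.83 and TGFBR1, a receptor, by 0.51, and TGFB2, a ligand, fell by 1.38. Of 18 YAP targets 4 were higher and 7 lower, with PTPN14, CCN1 and F3 lower by 0.79, 0.64 and 0.46.

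Growth factors and guidance cues held other large differences. Of 30 growth factor and receptor genes 12 were higher and 7 lower, with AREG, a ligand of the EGF receptor, higher by 0.78, MET, the hepatocyte growth factor receptor, by 0.32, and PDGFC lower by 0.59. IGF2, a fetal growth factor, fell by 0.89 (from 1113 ± 67.2 to 602 ± 58.04 CPM), with 44.4% of its exonic bases in another gene. Of 22 guidance genes 7 were higher and 7 lower: SEMA3B rose by 0.93, and PLXNC1, NTN4 and SEMA5A fell by 1.16, 0.93 and 1.04.

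Immune genes included receptors that rose. Of 23 chemokine, cytokine and receptor genes 10 were higher and 2 lower. The tumour necrosis factor receptors TNFRSF1B, TNFRSF12A, TNFRSF21 and TNFRSF1A rose by 1.05, 0.77, 0.66 and 0.37, and IL1R2, a decoy receptor for interleukin 1, fell by 1.03. Among 22 interferon-stimulated genes 6 were higher and 3 lower, led by IFIT2 at 1.90 (from 1.15 ± 0.547 to 4.01 ± 1.46 CPM), with STAT2, which carries the interferon signal, lower by 0.50.

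Factors of lineage and daily rhythm moved in both directions. Of 29 lineage factors 10 were higher and 3 lower: CDX2, the intestinal master factor, rose by 0.37, SOX9 of crypt cells by 0.83 and CEBPA by 0.66, and PRDM1, a repressor present in fetal gut epithelium, fell by 0.79. For CEBPA, 43.9% of exonic bases also lie in another gene. Of 28 nuclear receptors 7 were higher and 7 lower, with NR4A1 higher by 0.81 and the retinoic acid receptors RARB and RARG and the vitamin D receptor VDR lower by 1.17, 0.61 and 0.51. NR1D1 and NR1D2, clock repressors, rose by 0.93 and 0.33, and BMAL1, PER1 and CRY2 fell by 0.39, 0.54 and 0.32. Among gene families picked after their values were seen, 8 of 13 KLF factors were higher, led by KLF9 at 1.40, and 17 of 34 TRIM ubiquitin ligases were lower.

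Genes of RNA splicing, chromatin and DNA repair were mostly lower where they changed. Of 39 splicing factors 0 were higher and 21 lower by edgeR's quasi-likelihood test (2 higher at an unadjusted p under 0.05 and 0 by DESeq2), with a median of -0.19. SF3B3, a subunit of the branch site complex, had 549, 549, 564, 556 and 545 CPM in the 5 control libraries and 381, 357, 348, 348 and 368 CPM in the 5 PS20 libraries. HNRNPA2B1, an abundant RNA-binding protein, had 1528, 1404, 1550.5, 1585 and 1613 CPM in the 5 control libraries and 1114, 996, 1057, 1110.4 and 1129 CPM in the 5 PS20 libraries. The differences were small and the groups tight, with no overlap (log2 fold changes -0.62 ± 0.04, adjusted p = 1.93e-11, and -0.51 ± 0.05, 5.41e-09). DDX46, a helicase of spliceosome assembly on chromosome 5 from 134758771 to 134855133, had 282, 266, 292, 291 and 289 CPM in the 5 control libraries and 116, 104, 112, 115 and 114 CPM in the 5 PS20 libraries. Its fall was larger, again with tight groups (log2 fold change -1.34 ± 0.06, adjusted p = 1.04e-14).

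Of 45 histone and DNA modifying enzymes 4 were higher and 18 lower. DNMT1, the maintenance DNA methyltransferase, KMT2B and SETD2, histone methyltransferases, and HDAC1, a deacetylase, fell by 0.55, 0.50, 0.44 and 0.35, and KDM7A, a demethylase, rose by 1.03. Of 40 repair genes 4 were higher and 16 lower, with XRCC1, UNG, LIG1, TOPBP1 and PARP1 lower by 0.68, 0.64, 0.59, 0.50 and 0.36. The histone genes H2AC6 and H2BC5 were lower by 2.21 and 2.14. Both have near-identical copies and lost the call with replicates 1 and 2 alone, and H2BC5 also without control replicate 2 (adjusted p = 0.0537). Outside mitosis, motor genes rose in part, with KIF1A and KIF3C higher by 1.495 and 0.91 and KIF13B lower by 0.53 (of 25 tested 10 were higher and 6 lower).

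PS80 is the related ester with oleate in place of laurate, and was given at the same percentage and time. A direct test of PS20 against PS80 passed for 4501 of 12769 genes (35.2%), with 2200 higher and 2301 lower in PS20, and with upper quartile scaling for 2691 higher and 1855 lower. PS80 libraries held 6769409 to 42271053 counts, of which 1.45% to 2.97% were mitochondrially encoded, a range that overlaps with both other groups. PS80 replicates 1, 3, 4 and 5 were counted with another version of the counting program than all other libraries, whose part in these differences was not tested. Among the 79 genes chosen by the size of their PS20 difference from control in fold or CPM, 69 also differed between PS20 and PS80, each with PS20 farther from control. Since the same PS20 values chose these genes, nothing is read from that direction.

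NGFR was 2.96 ± 0.27 higher (log2, SE) with PS20 than with PS80 (adjusted p = 1.49e-07), and 2.99 higher with PS80 than in control. SCNN1A was 1.26 ± 0.12 higher with PS20 than with PS80 (adjusted p = 4.81e-07) and differed by -0.08 between PS80 and control. For GAS5 the difference between the esters was 1.35 ± 0.09 (adjusted p = 8.85e-09) beside 0.44 for PS80 minus control, and for DDIT4 it was 1.43 ± 0.15 (3.77e-06) beside 0.52. INSIG1-DT and TM7SF2 stood 1.55 ± 0.16 and 1.04 ± 0.10 above PS80, whose differences from control were 0.05 and 0.06. SLC2A3 was -0.83 ± 0.06 against PS80 (adjusted p = 1.26e-09), with PS80 at 0.28 against control, the opposite sign to PS20. PKM was -0.79 ± 0.05 against PS80 (9.41e-12), with -0.08 for PS80 minus control.

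Of the 79 genes, 10 did not differ between the esters beyond the threshold. CYP1A1 was 0.02 ± 0.25 (adjusted p = 0.954), with an approximate 95% interval of -0.46 to 0.51, and FN1 was -0.04 ± 0.09 (0.764), with an interval of -0.22 to 0.14. FGG had an interval of -0.67 to 0.28. CEACAM5 had one of 0.12 to 2.20, before adjustment over all genes, and an adjusted p of 0.111. These intervals leave room for differences in either direction for CYP1A1, FN1 and FGG. SI, AFP, MYBPH, CEACAM6, CLMP and EEF2 were the others.

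Several lists divided between the esters, in a test that 35.2% of all tested genes passed. Of 22 small nucleolar RNA host transcripts 12 were higher with PS20 than with PS80 and 2 lower. Of 19 sterol uptake and efflux genes 9 passed, each higher with PS20, and of 38 lysosome and autophagy genes 17 were higher and 5 lower. Of 37 actin, myosin and linker genes 2 were higher with PS20 and 28 lower (median -0.33, against 0.00 over all tested genes). Of 24 nucleotide synthesis genes 16 passed, each lower with PS20 (median -0.25), and of 41 ribosome biogenesis factors 20 passed, each lower. In the cytosolic synthetases 5 of 20 were higher and 2 lower, a share near that of all tested genes.

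**Figure D5:**
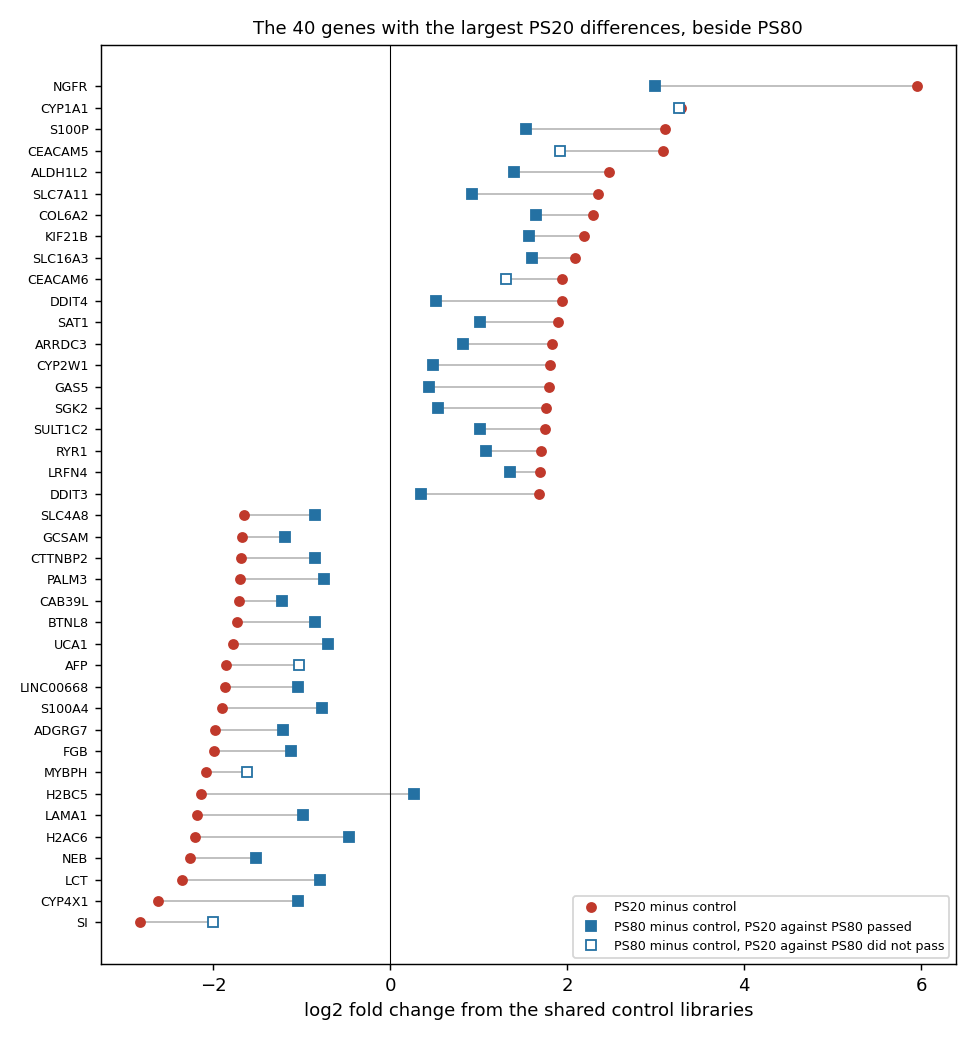
The 40 genes passed without overlap at a mean of at least 5 CPM and had the top 20 and bottom 20 log2 fold changes. For each, red circles give PS20 minus control and blue squares PS80 minus control, with the same control libraries in both. Squares are filled where PS20 against PS80 passed. CYP1A1 has both symbols close together, and NGFR and H2BC5 have them far apart.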

How the data were processed

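The authors deposited raw counts of reads per gene for each library, with no normalization. Reads were trimmed with cutadapt and aligned with STAR 2.7.9a to GRCh38, and DESeq2 1.32.0 was used by the authors, per the submitters' processing notes. Per the file headers, counts were made with featureCounts 2.0.0 (2.0.3 for PS80 replicates 1, 3, 4 and 5) on GENCODE 42 with a minimum mapping quality of 10 and no option for strand or pairs, so overlapping genes on opposite strands cannot be told apart.

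Counts were fitted here with edgeR 4.0.16 in R 4.3.3: genes were kept by filterByExpr (minimum count 10, minimum total 15), libraries scaled by trimmed mean of M-values, and 1 term per group was fitted over all 15 libraries with robust quasi-likelihood tests. Groups were taken from the sample titles. p-values were adjusted by Benjamini-Hochberg over all 12769 tested genes at 0.05, and SE was derived from the test's F value. In counts simulated for PS20 against control over 12769 genes, 87 of 100 genes changed by 1 on the log2 scale and 56 of 100 changed by 0.5 were called, with 8 calls among 12569 unchanged genes. Far fewer genes were changed in the simulation than passed in the data, so these rates need not hold for the data. Total counts were 4183096 to 17251564 over the 10 libraries compared, and every pair of replicates differed by more than counting noise.

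Named genes passed the test without overlap between groups and were the 20 highest and 20 lowest in fold change at 5 CPM or more, the 12 highest and 12 lowest at 100 CPM or more, the 10 largest gains and losses in CPM, the 6 highest and 6 lowest at 2 CPM or more among long noncoding genes whose symbol marks them as such (LINC, -DT or a host gene HG, so not FAM225A, GAS5, ZFAS1 or UCA1), genes switched on or off, and up to 5 members of each of 46 gene lists by smallest p. Members, lists and tests were chosen with earlier results of these data known. Promoters from RefSeq (GRCh38.p14) matched 9439 of 11527 tested protein-coding genes by symbol. Alternatives were other scaling factors, filters and fits, DESeq2 1.42.0, a replicate term, subsets of replicates and each library left out.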

Additional observations from a re-analysis of the deposited data

Results flagged for a closer look

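Among 90 sets of 5 libraries examined (42 genes shown by library and the depth and composition of the libraries, in control and PS20), 7 held a library whose gap to the nearest other exceeded 0.71 of the set's range. Chance flags about 1 in 20 such sets. In PS20 replicate 2, ABCB1 was lowest at 73.2 CPM, against 111 to 124 CPM in the other 4, and ARRDC3 was highest at 144 CPM, against 122 to 126 CPM. DDIT4 was also highest in PS20 replicate 2 at 76.7 CPM, against 45.5 to 53.2 CPM. LAMA1 was lowest in PS20 replicate 1 at 39.6 CPM, against 48.2 to 50.3 CPM. In control, FLNC was highest in replicate 2 at 280.1 CPM, against 250.4 to 259 CPM, and S100A4 was lowest in replicate 1 at 30.01 CPM, against 38.8 to 41.7 CPM. PS20 replicate 3 had the most counts, 17251564, against 6749086 to 8829612 in the other PS20 libraries. None of the 6 genes lost its call when a single library was left out of edgeR's quasi-likelihood test.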

How the results depend on the processing

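Of 269 genes named with a value or a direction, none changed direction in any of the alternatives run. Most of these genes were chosen because they passed without overlap between groups. That choice largely fixed this outcome in advance, and nothing is read from it. With replicates 1 and 2 alone 18 lost the call: CARS1, CRY2, DGAT1, DHODH, F3, H2AC6, H2BC5, IARS2, LCAT, MOGAT3, MT-CO3, MT-ND1, MT-RNR2, MT-TP, MYBPH, PER1, RRM1 and SNHG3. With replicates 3 to 5 alone MT-ND1 lost it. Under the other settings H2BC5 and MT-RNR2 lost it without a filter on low counts and MT-TP with the replicate term, and the same 3 genes lost it when single libraries were left out. The number of genes that passed for PS20 against control fell to 3302 with replicates 1 and 2 alone, where fewer libraries entered, and was 6311 with replicates 3 to 5 alone, 6068 with DESeq2 and 5551 to 6031 with 1 library left out. Without a filter on low counts 1188 genes passed with more than 2-fold difference, since more genes with low counts were tested, and with 1 library left out 640 to 709 did. For PS20 against PS80, 1644 passed with replicates 1 and 2 alone and 3804 to 4389 with 1 library left out. Upper quartile scaling gave 59.4% higher among the genes that passed for PS20 against control, in place of 50.4%. Medians of 13 of the 46 gene lists changed sign in at least 1 alternative. A fit without robust estimation, added after seeing the data, called 6163.

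Replicate numbers do not pair the samples by any label. Deviations of same-numbered PS20 and control libraries correlated across genes at 0.25, 0.04, 0.14, -0.03 and 0.14 for numbers 1 to 5, and 4 of 5 PS20 libraries correlated best with the control of their own number. With the replicate number as a block, 6866 genes passed for PS20 against control, 677 with more than 2-fold difference, and 5451 for PS20 against PS80. Depth limits genes under about 5 CPM, of which a smaller share passed.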
